A study of Mus musculus with 47 samples.

Results

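A set of 10 genes of iron recycling, transport and storage was followed through the liver, lung and brain of mouse embryos that carry 1 of 2 point mutations in Daxx, a chaperone of the histone variant H3.3. They are Hamp, Slc40a1, Hmox1, Slc11a1, Tfrc, Tfr2, Trf, Fth1, Ftl1 and Bmp6, taken by symbol from a table of 20456 genes, and each of them was found there and passed the filter on low counts that left 16892 genes. The question was whether iron genes differ in S226A liver, where RNA of Kupffer cells, the resident macrophages of the liver, is scarce.

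Libraries were made from total RNA of 47 tissue samples of 17 embryos at E18.5, shortly before birth, on a C57BL/6 background. The mutants were homozygous for Daxx S226A, a substitution that abolishes binding to H3.3, or for Daxx Y130A, which abolishes binding to Atrx, and each was compared with wild-type (WT) embryos of its own litters. Both alleles were knocked in with Cas9 in C57BL/6N zygotes and the lines were then backcrossed to C57BL/6J. Each of the 12 groups of tissue and genotype held 4 libraries, 1 from each of 4 litters, except 3 for the WT lungs of the Y130A litters. The mutations were present in every cell of the embryo, and a table of counts per gene does not show the substituted base, so that genotypes stand as labelled.

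Iron in the body is mostly recycled. Macrophages take up spent red cells, heme oxygenase 1 (Hmox1) opens the heme ring and frees the iron, and ferroportin (Slc40a1) carries the iron out of the cell to plasma transferrin (Trf), from which cells take it up by way of the transferrin receptor (Tfrc). Iron that is not used is stored in ferritin, a shell of heavy (Fth1) and light (Ftl1) chains. Hepcidin (Hamp), a peptide hormone made by hepatocytes under the control of Bmp6 and the iron sensor Tfr2, removes ferroportin from the cell surface, and Slc11a1 moves metal ions out of the phagosomes of macrophages. The fetal liver is also the organ where most red cells are made.

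Part of this control acts on the RNA itself. Iron regulatory proteins bind a short hairpin, the iron responsive element, and when iron is scarce they block translation of an RNA that holds it before the coding region and protect from decay an RNA that holds it after. The elements are shown because Slc40a1 and Ftl1, which differ in S226A liver below, carry one before the coding region and Tfrc carries them behind it, and because counts see RNA but not its translation. A search of 1 transcript for each of 21782 coding genes of GENCODE M21, on the transcribed strand, for the letters CNNNNNCAGTGN with 5 paired bases on either side of the loop found the hairpin in the untranslated regions of 123 genes (0.565%), while the letters alone were found in 34.8%. Of the 10 genes, 4 held it. In the 27 bases shown for each (GRCm38, written as the DNA of the transcribed strand, 5′ to 3′), capitals mark the 6 bases of the loop.
Slc40a1, 5′ untranslated region, chr1:45925466-45925492, minus strand: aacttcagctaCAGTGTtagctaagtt
Fth1, 5′ untranslated region, chr19:9982733-9982759, plus strand: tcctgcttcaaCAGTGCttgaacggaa
Ftl1, 5′ untranslated region, chr7:45459780-45459806, minus strand: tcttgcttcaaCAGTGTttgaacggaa
Tfrc, 3′ untranslated region, chr16:32631220-32631246, plus strand: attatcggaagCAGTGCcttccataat
Tfrc, 3′ untranslated region, chr16:32631599-32631625, plus strand: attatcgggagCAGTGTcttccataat
Tfrc, 3′ untranslated region, chr16:32631664-32631690, plus strand: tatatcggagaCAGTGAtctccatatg
Tfrc, 3′ untranslated region, chr16:32631711-32631737, plus strand: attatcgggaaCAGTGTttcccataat
The single elements found in Slc40a1, Fth1 and Ftl1 lie before the coding region, and the 4 found in Tfrc all lie behind it. The search asked for all 5 pairs of the stem and can miss elements with a less perfect stem.

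The libraries of the S226A litters held 15722147 to 26190403 counted reads, and those of the Y130A litters 36351738 to 54885020. Levels are given as CPM, the counts of a gene scaled to a common library size, with library sizes adjusted by TMM, a normalization across libraries. Markers of hepatocytes summed to 180926 to 280750 CPM in the livers and 12.8 to 1594 CPM in the lungs, those of lung epithelium to 8016 to 13212 CPM in the lungs, and those of neurons and glia to 6094 to 7487 CPM in the brains, so that tissues matched their labels. There were 2 livers with transcripts of squamous epithelium, replicate 2 of the WT livers of the S226A litters (1203 CPM summed over 10 markers) and replicate 1 of the Y130A livers (794 CPM), against at most 10.03 CPM in the other livers. Without these 2 livers, the iron genes called in each comparison that involves liver were the same in number and name.

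In WT embryos, most of the iron genes were at their highest level in liver. In all, 9 of the 10 were higher in liver than in lung and in brain, and Bmp6, a ligand of the BMP family that is made mainly outside hepatocytes, was lower (adjusted p of edgeR at most 9.2e-18 for each of Slc40a1, Hmox1, Slc11a1, Tfrc, Tfr2, Trf, Fth1, Ftl1 and Bmp6 in both comparisons). Of all genes, 80.1% differed between liver and lung and 87.3% between liver and brain, and 37.8% and 41.8% were higher in liver. For liver against lung, Hamp (SE 1.03) was the one gene of the 10 that did not meet the stringent criterion defined in the next paragraph. The size of the differences varied widely. Transferrin, the main iron carrier of plasma, had a mean of 1425 ± 224 CPM (SD, n = 8) in WT liver, 17.9 ± 7.03 CPM in lung (n = 7) and 0.880 ± 0.444 CPM in brain (n = 8). Markers of hepatocytes moved between lungs as well (12.8 to 572 CPM in the WT lungs of the S226A litters), and their part in the Trf level of lung was not tested. Ferritin chains varied least, with Ftl1 at 1005 ± 144 CPM in liver, 350 ± 56.9 CPM in lung and 461 ± 56.6 CPM in brain.

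Per kilobase of transcript, a scale on which genes can be compared, the order in WT liver was led by the ferritin chains. Ftl1 (1038 CPM per kb) was followed by Fth1 (663), Trf (554), Tfrc (179), Hmox1 (120), Slc40a1 (116), Tfr2 (76.7), Hamp (16.1), Slc11a1 (12.4) and Bmp6 (0.697). Neighbors whose 8 libraries overlapped were Fth1 and Trf, Hmox1 and Slc40a1, Tfr2 and Hamp, and Hamp and Slc11a1, and the other neighbors did not overlap. Measured against the union of all annotated exons, Trf stood ahead of Fth1 and Tfr2 ahead of Slc40a1. In lung and brain, Ftl1, Fth1 and Tfrc held the first 3 places. Between WT lung and brain 8 of the 10 genes differed, against 84% of all genes, with Slc40a1, Hmox1, Slc11a1, Trf and Fth1 higher in lung and Tfrc, Tfr2 and Ftl1 higher in brain, and of these Hmox1, Slc11a1, Tfr2 and Trf met a stringent criterion, a fold beyond 2 with an adjusted p below 0.01 and a standard error below 1 on the log2 scale, which 48.8% of all genes met.

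**Figure D1:**
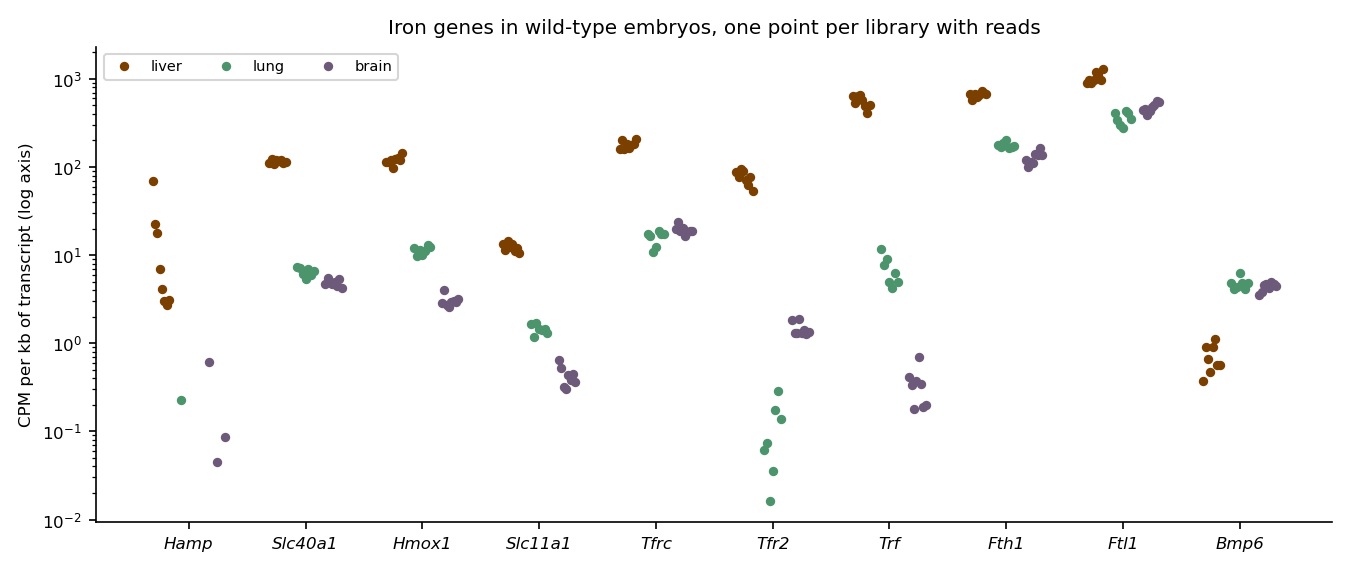
Level of each iron gene in WT libraries as CPM per kilobase of the coding transcript, on a log axis, for 8 livers, 7 lungs and 8 brains, with libraries without reads left out. The plot shows 9 genes highest in liver and Bmp6 lowest there, and the points of Hamp in liver spread over a wider range (2.71 to 68.6 CPM per kb) than those of the other liver genes.

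In S226A liver, 3 of the 10 genes were called, which means an adjusted p below 0.05 in edgeR's quasi-likelihood test after Benjamini-Hochberg adjustment over all genes tested. Slc40a1 and Hmox1 fell and Ftl1 rose, by 1.47-, 1.53- and 1.34-fold. Of all genes tested, 11.7% were called in this comparison, 6.14% as higher and 5.54% as lower, and the median log2 fold change was -0.10 over the 10 genes and -0.01 over all genes. None of the 3 reached the stringent criterion, which 2.1% of all genes did. The libraries of the groups did not overlap for these 3 genes, as for 11.9% of all genes. Without the 2 livers with squamous transcripts the log2 fold changes were -0.53 for Slc40a1, -0.60 for Hmox1 and 0.45 for Ftl1 (adjusted p = 0.0024, 0.00036 and 0.0073).

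Ferroportin, the only known exporter of iron from cells, is encoded by Slc40a1 (ENSMUSG00000025993.10, chr1:45908068-45926523, minus strand). Its level was 379, 415, 367 and 407 CPM in the 4 WT livers and 253, 309, 252 and 253 CPM in the S226A livers. The groups did not overlap, and the S226A embryo was lower than its littermate in 4 of 4 litters, at 0.623 to 0.744 of its level. The log2 fold change was -0.55 (standard error, SE, 0.11, adjusted p = 0.00042), and the exact permutation test, which was two-sided, gave p = 0.0286, the smallest that 4 libraries against 4 allow. One S226A liver, replicate 2, stood above the other 3.

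Hmox1 (ENSMUSG00000005413.8, chr8:75093621-75100589, plus strand), the inducible heme oxygenase, was also lower in every S226A liver. The WT livers held 181, 180, 187 and 154 CPM and the S226A livers 111, 129, 91.9 and 127 CPM, so that all S226A livers lay below all WT livers. Ratios within litters ran from 0.493 to 0.821. The log2 fold change was -0.61 (SE 0.11, adjusted p = 6.1e-05).

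Kupffer cell markers fell much further than these 2 genes. Their sum over 15 genes was 961 to 1162 CPM in the WT livers and 251 to 396 CPM in the S226A livers, with 13 of the 15 called as lower and a median log2 fold change of -2.79. Vsig4, a complement receptor of Kupffer cells, had no read in any S226A liver (13.5 to 19.7 CPM in WT), and the lectin Clec4f fell to 0.345 ± 0.273 CPM from 130 ± 26.0 CPM (SD, n = 4). The other markers with the smallest adjusted p were Csf1r, the receptor of a macrophage growth factor (log2 fold change -1.61), and the complement genes C1qa (-3.26), C1qb (-2.18) and C1qc (-2.79). Marco (75.1 ± 16.8 CPM against 98.5 ± 10.9 CPM) and Nr1h3 (36.1 ± 2.05 CPM against 36.8 ± 2.80 CPM) did not pass. In bulk tissue, fewer cells of a type and less RNA per cell cannot be told apart, and the part of Kupffer cells in the levels of Slc40a1 and Hmox1 was not tested.

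**Figure D2:**
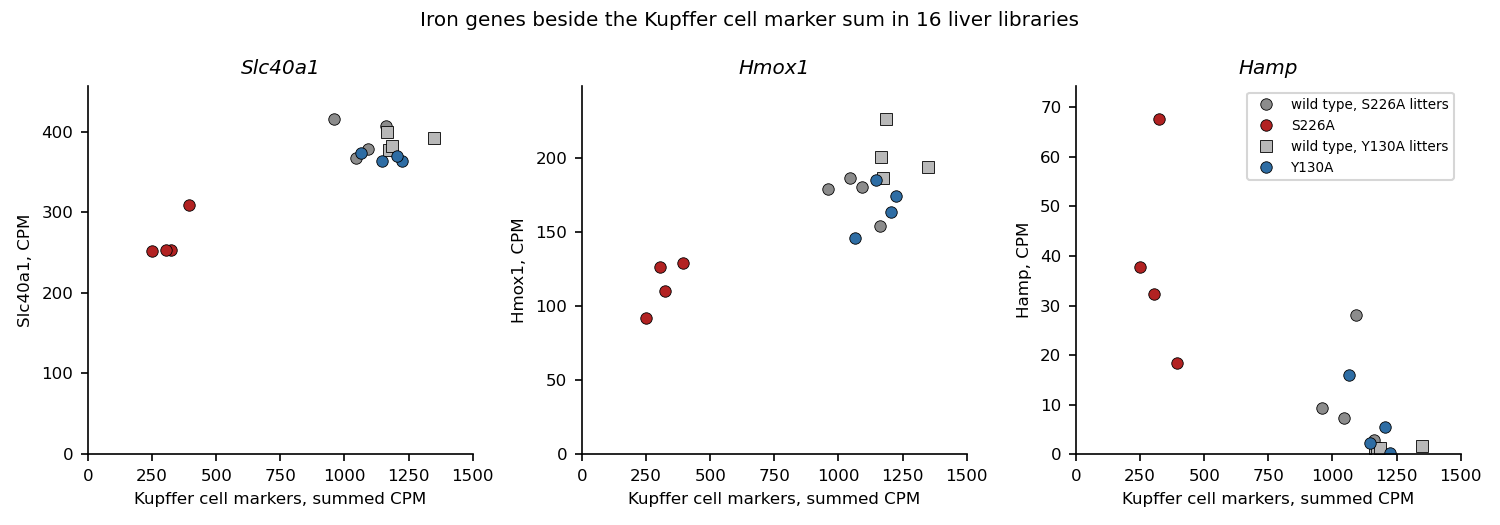
Slc40a1, Hmox1 and Hamp (CPM, y axes) against the summed CPM of 15 Kupffer cell markers (x axes) in the 16 livers, one point per library. The 4 S226A livers stand apart at 251 to 396 CPM of markers, with lower Slc40a1 and Hmox1 than the other 12, while the remaining livers lie between 961 and 1348 CPM of markers.

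Most markers of neutrophils and monocytes were higher. Neutrophil markers rose in 13 of 14 cases (median log2 fold change 1.44, sums of 3361 to 4021 CPM in WT and 9816 to 10562 CPM in S226A liver), led by Lcn2, Fcnb, Prtn3, Camp and Mmp8. Among 5 monocyte markers, 4 rose, namely F13a1, Ly6c2, Itgam and Ms4a3. No erythroid marker of 17 was called, with 3 at an unadjusted p under 0.05 (24.7% of all genes were). The 17 had a median log2 fold change of -0.25, against -0.01 over all genes. Their sum was 27165 to 35992 CPM in WT and 26168 to 30561 CPM in S226A liver. Markers of hepatocytes, which make most Hamp, Trf and Tfr2, summed to 219531 to 225824 CPM in WT and 180926 to 215043 CPM in S226A livers, with none of the 10 called and none at an unadjusted p under 0.05. These sums did not overlap for hepatocytes, and the part of any of these cell types in the iron genes was not tested.

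Slc11a1 (ENSMUSG00000026177.11, chr1:74375195-74386062, plus strand), which marks phagocytes in general, showed no call. It was at 31.3, 26.5, 33.4 and 28.9 CPM in WT and 35.4, 34.6, 27.7 and 22.6 CPM in S226A livers. The groups overlapped fully, and the log2 fold change was 0.00 with an SE of 0.19. The difference between S226A and WT in this gene was thus not detectable, in libraries where Kupffer cell markers fell and neutrophil markers rose.

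Hepcidin closes the exit of iron from cells, and Hamp (ENSMUSG00000050440.8, chr7:30942368-30944032, minus strand) was the iron gene that varied most among livers. The WT livers of the S226A litters held 28.1, 9.27, 7.26 and 2.82 CPM (458, 141, 101 and 46 reads) and the S226A livers, in the same order of litters, 67.6, 18.3, 37.7 and 32.2 CPM (1026, 396, 609 and 486 reads). The groups overlapped, since the highest WT liver exceeded the lowest S226A liver, but Hamp was higher in the S226A embryo in 4 of 4 litters, by ratios of 1.97 to 11.4. The log2 fold change of 1.71 (SE 0.66) did not pass the threshold (adjusted p = 0.090, exact permutation p = 0.0571). With litter as a block it was 1.98 (adjusted p = 0.0498, at the edge of the threshold), and without WT replicate 1, the highest WT liver, it was 2.59 (adjusted p = 0.0171). Leaving out any other library gave no call, with 1.31 at the lowest (adjusted p = 0.282, without S226A replicate 1). DESeq2 gave 1.70 with an adjusted p of 0.411. In lung and brain Hamp had at most 6 reads in any library, and no fold is given there.

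The start of Hamp is shown because it holds 2 of the motifs by which the gene is known to be driven, 1 for the BMP pathway through SMAD proteins (GGCGCC) and 1 for STAT3 in inflammation (TTCNNNGAA). The 150 bases run on the minus strand of chr7:30944030-30944179 in GRCm38.p6 (RefSeq), and capitals mark the motifs, which lie 109 to 104 and 97 to 89 bases before the start.
Hamp promoter: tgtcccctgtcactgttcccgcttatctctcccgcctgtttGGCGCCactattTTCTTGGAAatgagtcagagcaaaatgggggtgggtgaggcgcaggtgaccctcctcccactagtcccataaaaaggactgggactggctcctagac
Searched on both strands, which read alike for these palindromes, GGCGCC was found in 11.9% and TTCNNNGAA in 8.3% of 32851 RefSeq windows. These windows were searched whole and are longer than the 150 bases shown, so that the shares do not apply to a stretch of that length. The 2 motifs shown do not overlap. Windows were at hand for 7 of the 10 genes, of which Hamp and Tfrc held the first motif and Hamp alone the second. These are matches of letters and show no binding.

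The known regulators of Hamp within the set were not called. Tfr2 (ENSMUSG00000029716.13, chr5:137569840-137587481, plus strand), the iron sensor of hepatocytes, was at 271, 234, 295 and 274 CPM in WT and 252, 208, 222 and 265 CPM in S226A livers, lower in 4 of 4 litters but overlapping (log2 fold change -0.18, adjusted p = 0.404). Bmp6 (ENSMUSG00000039004.6, chr13:38345107-38500302, plus strand), the ligand that signals iron stores to hepatocytes, was at 1.35, 3.29, 2.37 and 1.72 CPM in WT and 1.98, 1.89, 3.22 and 3.45 CPM in S226A livers. Bmp6 rests on 22 to 52 reads per library here, and its log2 fold change of 0.27 (SE 0.23, adjusted p = 0.531) was within the spread of the libraries. Of 16 other tested genes of hepcidin control, 2 were called, both as lower, a share of 12.5% that is close to the 11.7% of all genes called in this comparison. Bmp2, the other BMP ligand upstream of Hamp, went from 13.2 ± 2.68 to 8.06 ± 3.09 CPM (adjusted p = 0.0298), and Hfe, a partner of Tfr2, from 33.6 ± 4.34 to 24.9 ± 2.47 CPM (adjusted p = 0.0310). Of 11 markers of liver endothelium and stellate cells, Stab1 and Pecam1 were lower as well (18.2%, against 11.7% of all genes called). The 11 summed to 2098 to 2349 CPM in WT and 1497 to 1940 CPM in S226A livers, without overlap. The part of these cells in Bmp2 was not tested. Hamp2, the close copy of Hamp in the mouse, had at most 6 reads in any liver, and reads could be divided between the 2 genes.

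Of the ferritin chains, the light chain was called in S226A liver and the heavy chain was not. Ftl1 (ENSMUSG00000050708.16, chr7:45457944-45459884, minus strand) was at 866, 943, 863 and 938 CPM in WT and 1003, 1533, 1080 and 1226 CPM in S226A livers. All S226A livers lay above all WT livers, higher in 4 of 4 litters, and the log2 fold change was 0.42 (SE 0.10, adjusted p = 0.0041). The call rests on S226A replicate 2, without which the log2 fold change was 0.29 (adjusted p = 0.0534). Fth1 (ENSMUSG00000024661.6, chr19:9980598-9985098, plus strand) was at 1010, 867, 1004 and 930 CPM in WT and 939, 897, 932 and 976 CPM in S226A livers, with overlapping groups and a log2 fold change of -0.03 (SE 0.07). Both ferritin genes have processed copies elsewhere in the genome, and reads that match several places may be counted incompletely.

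Tfrc and Trf, the receptor and its ligand, had lower means in S226A liver without passing the test. Tfrc (ENSMUSG00000022797.16, chr16:32608920-32632794, plus strand), which developing red cells express at high levels, was at 788, 980, 786 and 901 CPM in WT and 690, 867, 707 and 589 CPM in S226A livers. Tfrc was lower in the S226A embryo in 4 of 4 litters, at 0.653 to 0.899 of the littermate, although the groups overlapped. Its log2 fold change was -0.28 (SE 0.13, adjusted p = 0.176), and with litter as a block the same value of -0.28 passed (adjusted p = 0.0295). Trf (ENSMUSG00000032554.15, chr9:103204001-103230444, minus strand) was at 1631, 1355, 1634 and 1687 CPM in WT and 1392, 1139, 1235 and 1435 CPM in S226A livers, lower in 4 of 4 litters at 0.756 to 0.853, with a log2 fold change of -0.28 (adjusted p = 0.459). The lowest WT liver for Trf was replicate 2, the liver with squamous transcripts. With the block, 5 of the 10 genes were called in S226A liver, against 13.2% of all genes.

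**Figure D3:**
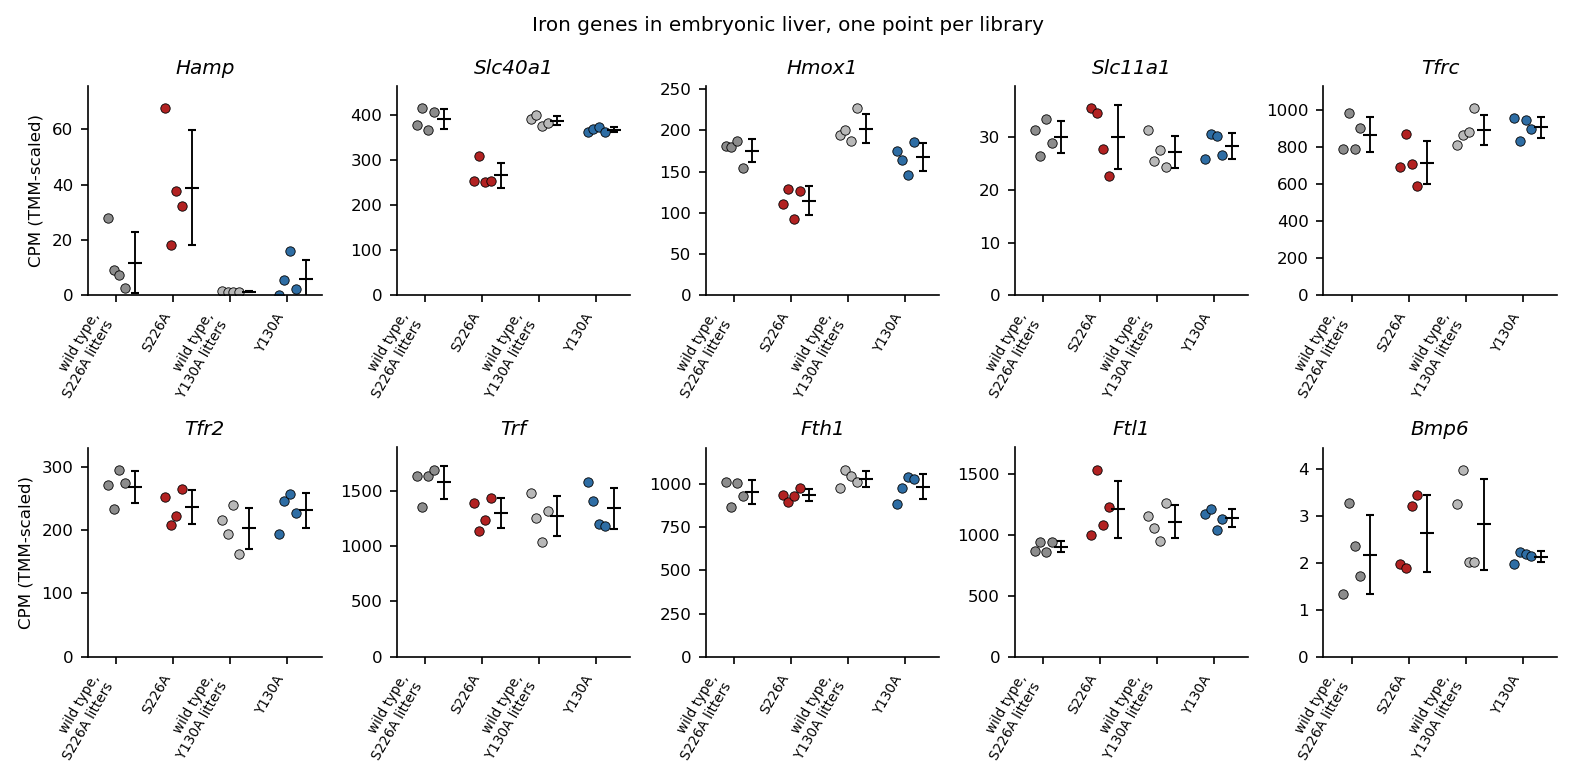
Level of each iron gene in liver as TMM-scaled CPM (y axes start at 0), one point per library, with mean and SD beside the points of each group. Slc40a1 and Hmox1 of S226A lie below all other livers, Hamp is high in S226A but overlaps WT, and the points of Fth1 and Slc11a1 overlap.

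Among the other iron genes of S226A liver, the largest rises were in genes that neutrophils also make. Of 14 tested genes of iron uptake and transport, 3 rose and 1 fell (28.6%, against 11.7% of all genes called). Lcn2, which binds iron-loaded siderophores, and Ltf, the iron-binding lactoferrin, rose by log2 1.49 and 1.42 (adjusted p = 1.4e-11 and 0.00028), and both are on the neutrophil list too. Cp, the ferroxidase ceruloplasmin that works with ferroportin, rose from 947 ± 33.4 to 1397 ± 302 CPM (adjusted p = 0.00056). Slc39a8, a metal importer, fell from 70.7 ± 9.17 to 54.3 ± 8.64 CPM (adjusted p = 0.0133).

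In heme synthesis, 1 gene rose and 1 fell. Alas1, the first enzyme of heme synthesis outside red cells, rose from 74.4 ± 8.74 to 120 ± 14.3 CPM (log2 fold change 0.68, adjusted p = 5.2e-08), and Cpox, a late enzyme of the pathway, fell by 0.40 on the log2 scale (adjusted p = 0.00042). The list held 9 tested genes, of which these 2 make 22.2%. Of 16 genes that clear heme and hemoglobin, 2 fell (12.5%, against 11.7% of all genes called). Cd163, the receptor for hemoglobin bound to haptoglobin, went from 11.6 ± 1.31 to 0.294 ± 0.257 CPM (adjusted p = 3.6e-13), and Spic, a transcription factor of macrophages that recycle iron, from 19.2 ± 2.25 to 9.23 ± 4.28 CPM (adjusted p = 0.0354). Both genes are on the Kupffer cell list as well. Of 7 genes of iron sensing and ferritin turnover, Fbxl5, which marks an iron regulatory protein for degradation, was the single call, or 14.3% (log2 fold change 0.24, adjusted p = 0.0359).

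Slc40a1 and Hmox1 were higher, not lower, in the lungs of the S226A embryos. In S226A lung, 3 of the 10 genes were called, all as higher, against 1.88% of all genes called and 0.852% called as higher. Hmox1 was at 18.7, 15.4, 18.1 and 15.9 CPM in WT and 29.0, 29.7, 29.2 and 32.5 CPM in S226A lungs. The groups did not overlap, which held for 3.81% of all genes, and the log2 fold change was 0.82 (SE 0.11, adjusted p = 1.0e-05). Slc40a1 was at 24.6, 24.2, 20.4 and 18.1 CPM in WT and 31.0, 39.0, 34.8 and 24.7 CPM in S226A lungs. Its groups met but did not overlap, with a log2 fold change of 0.57 (SE 0.12, adjusted p = 0.0052), which no longer passed without S226A replicate 2 (adjusted p = 0.0622) or when only lungs of these 2 groups were fitted (adjusted p = 0.528).

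Tfr2, the third call in lung, rests on very few reads. The WT lungs held 4, 5, 1 and 2 reads and the S226A lungs 16, 6, 17 and 13, so that the groups did not overlap and the log2 fold change was 1.93 (SE 0.47, adjusted p = 0.0220). The call was lost when WT replicate 3 (adjusted p = 0.130), WT replicate 4 (0.0798), S226A replicate 1 (0.0540) or S226A replicate 3 (0.0536) was left out. WT lungs of the Y130A litters held 0.423 to 0.876 CPM of Tfr2, which overlaps the S226A lungs (0.280 to 0.792 CPM), and the WT lungs of the S226A litters (0.0501 to 0.225 CPM) lay below both. The 2 sets differ in litter and depth, and their WT lungs were not tested against each other. The other 7 genes were not called in S226A lung, and none of the 10 met the stringent criterion there (0.302% of all genes did). Hamp had no read in the S226A lungs. Tfrc had a log2 fold change of 0.19, Ftl1 of 0.12, Slc11a1 of -0.07, Bmp6 of -0.16, Fth1 of -0.16 and Trf of -0.35, and of these Fth1 was lower in 4 of 4 litters.

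Macrophage markers of the lung were mixed. Of the 15 genes on the Kupffer cell list, Csf1r, Cd163 and Adgre1 fell in S226A lung and Marco, Cd5l and Spic rose. Summed, they were at 149 to 183 CPM in WT and 118 to 129 CPM in S226A lungs. Neutrophil markers rose in 6 of 14 cases, from sums of 68.3 to 116 CPM to 172 to 228 CPM. The part of these cells in Hmox1 and Slc40a1 of lung was not tested. Of the other iron lists, Steap3, a ferrireductase, fell (log2 fold change -0.83, adjusted p = 0.0423), Cd163 fell by 1.37 on the log2 scale (adjusted p = 0.0068) and Spic rose (log2 fold change 2.26, adjusted p = 0.04998, with at most 7 reads in a WT lung).

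In S226A brain the single call was Hmox1, against 0.243% of all genes, and it did not meet the stringent criterion, which 0.124% did. It was at 4.54, 6.24, 4.29 and 4.00 CPM in WT and 7.00, 8.35, 7.99 and 5.16 CPM in S226A brains, higher in 4 of 4 litters, with overlapping groups and a log2 fold change of 0.58 (SE 0.13, adjusted p = 0.0244). With litter as a block the log2 fold change of 0.58 did not pass (adjusted p = 0.0773, with 0.213% of all genes called), it did not pass with only the brains of these 2 groups fitted (adjusted p = 0.637), and it held in 2 of 8 fits that left out 1 library, those without WT replicate 2 and without S226A replicate 4. Slc40a1 was at 15.8, 18.6, 16.8 and 15.8 CPM in WT and 20.9, 17.2, 20.9 and 20.7 CPM in S226A brains (log2 fold change 0.25, not called), where S226A replicate 2 was the low one. The other genes of S226A brain, apart from Hamp, had log2 fold changes from -0.38 (Slc11a1) to 0.47 (Trf), and without a call Slc11a1 and Tfr2 (-0.30) were lower and Fth1 (0.07) was higher in 4 of 4 litters. Neutrophil markers were higher in 2 of 14 cases, S100a8 and S100a9, with sums of 4.01 to 6.20 CPM in WT and 7.63 to 16.4 CPM in S226A brains that did not overlap, and their part in Hmox1 of brain was not tested. Of the wider iron lists, Cd163 fell by 2.02 on the log2 scale (adjusted p = 0.00018), beside Csf1r, C1qa, C1qb and C1qc, which mark microglia in brain. The Kupffer list summed to 66.2 to 70.2 CPM in WT and 31.4 to 39.7 CPM in S226A brains, while Marco rose from no read to 0.372 to 1.48 CPM.

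**Figure D4:**
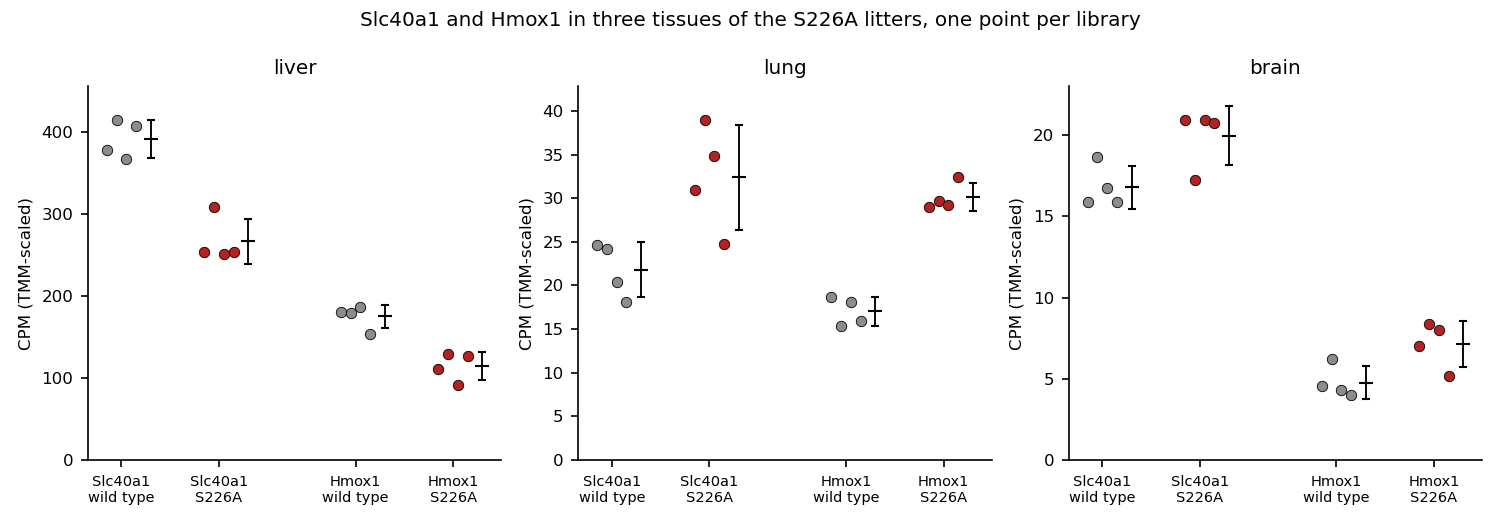
Slc40a1 and Hmox1 in liver, lung and brain of the S226A litters as TMM-scaled CPM (y axes start at 0), one point per library with mean and SD beside each group. S226A livers lie below WT livers for both genes, S226A lungs above WT lungs for both, and in brain the groups overlap.

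That liver and the other tissues of S226A embryos differ was tested on the difference itself. The effect in liver minus that in lung was called for 3 of the 10 genes, Hmox1 (log2 difference -1.43, adjusted p = 2.5e-08), Slc40a1 (-1.12, adjusted p = 4.6e-06) and Tfr2 (-2.11, adjusted p = 0.0043), against 6.9% of all genes. For Tfr2 the log2 fold change was -0.18 in liver, without a call, and 1.93 in lung, where it rests on very few reads. With litter as a block, Tfrc was called as well (-0.48, adjusted p = 0.0153), against 9.29% of all genes. Without S226A liver replicate 2 Tfrc was also called (-0.57, adjusted p = 0.0497). The effect in liver minus that in brain was called for Hmox1 (-1.20, adjusted p = 5.0e-06) and Slc40a1 (-0.81, adjusted p = 0.0013), against 3.71% of all genes. Ftl1, at 0.43 (adjusted p = 0.104), passed with DESeq2 (0.41, adjusted p = 0.0373) and without S226A liver replicate 1 (0.51, adjusted p = 0.0425). The stringent criterion was met by the same 3 genes for liver and lung (1.51% of all genes) and by Hmox1 for liver and brain (0.995% of all genes).

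Y130A embryos gave no call among the 10 genes in any tissue, against 0.272% of all genes called in liver, 0.0178% in lung and 0.00592% in brain by edgeR. At an unadjusted p under 0.05 there were 2 of the 10 in liver (Hamp and Hmox1), 0 in lung and 1 in brain (Fth1), against 9.22%, 2.92% and 2.22% of all genes. DESeq2 called none of the 10 either. In liver, small differences without overlap were found for Slc40a1 and Hmox1, with libraries given here by replicate number, which in the livers of the Y130A litters does not follow the litters. Slc40a1 was at 392, 400, 377 and 382 CPM in WT and 364, 370, 374 and 363 CPM in Y130A livers, and Hmox1 at 194, 201, 187 and 226.4 CPM in WT and 174, 164, 146 and 185 CPM. Neither gene overlapped between the groups, a pattern shown by 2.35% of all genes, and both were lower in the Y130A embryo in 4 of 4 litters. Log2 fold changes were -0.08 (SE 0.11, adjusted p = 0.948) for Slc40a1 and -0.27 (SE 0.11, adjusted p = 0.332) for Hmox1. Kupffer cell markers were at 1065 to 1225 CPM in Y130A and 1165 to 1348 CPM in WT livers, with none of 15 called and none at an unadjusted p under 0.05. The 5 wider lists of iron and heme genes gave no call in any Y130A tissue and, in liver, none at an unadjusted p under 0.05.

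Hamp in the Y130A litters was low and uneven. By replicate number, which does not pair littermates here, the WT livers held 1.67, 1.25, 1.11 and 1.27 CPM and the Y130A livers 0.266, 5.41, 15.9 and 2.15 CPM. The mutant group thus lay on both sides of the WT group. Hamp was higher in the Y130A embryo in 3 of 4 litters, with ratios within litters of 0.209 to 12.7. The fitted log2 fold change of 2.14 (SE 0.70) was not called (adjusted p = 0.212) and rests on Y130A replicate 3, without which it was 0.96 (adjusted p = 0.707). With litter as a block it was 1.31 (adjusted p = 0.558), and without Y130A replicate 1 it was 2.55 (adjusted p = 0.0601). All 4 WT livers of the Y130A litters lay below all 4 WT livers of the S226A litters (2.82 to 28.1 CPM), sets that differ in litter and depth and were not tested against each other. The remaining genes of Y130A liver had log2 fold changes from -0.40 (Bmp6) to 0.19 (Tfr2), those of Y130A lung, apart from Hamp, from -0.19 (Slc11a1) to 0.25 (Trf), and those of Y130A brain, again without Hamp, from -0.16 (Fth1) to 0.22 (Hmox1).

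**Figure D5:**
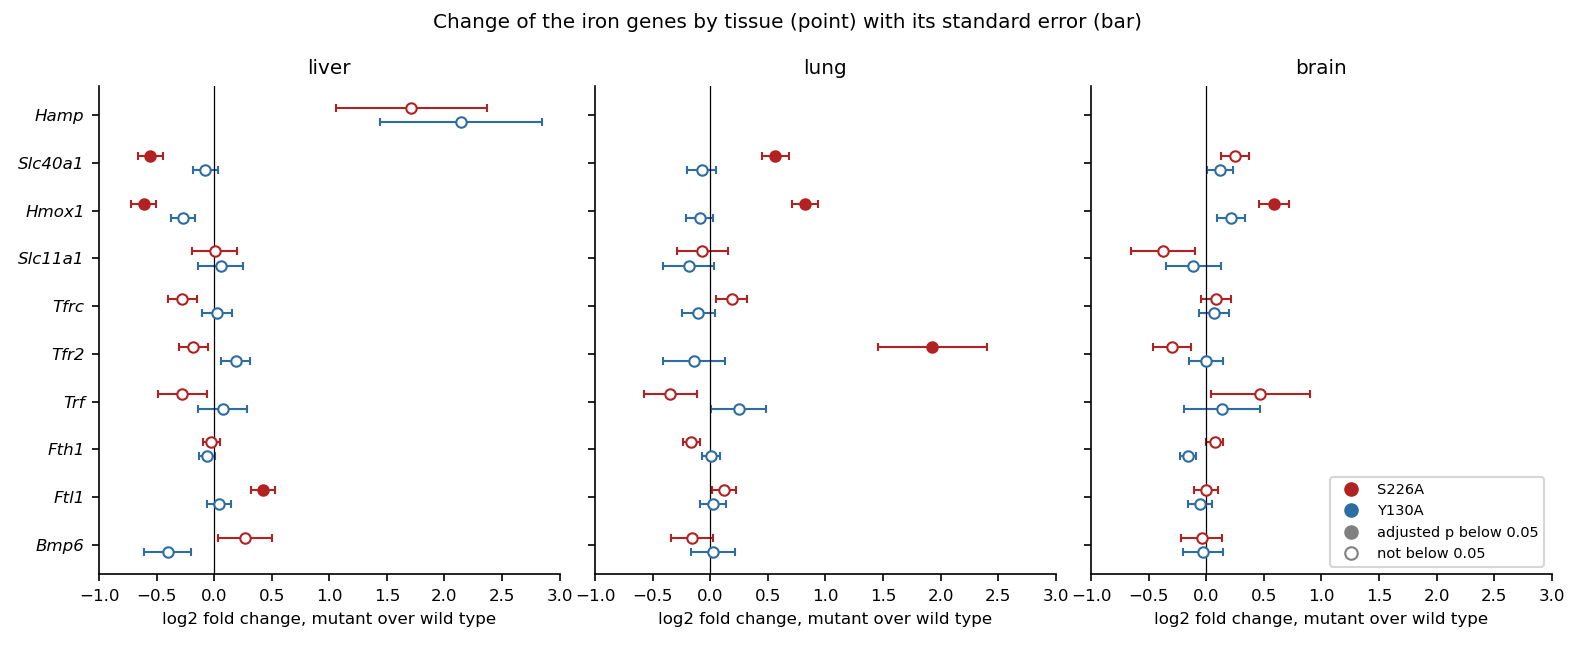
Log2 fold change of each iron gene, mutant over WT (x axis), with its standard error as a bar, for S226A (red) and Y130A (blue) in liver, lung and brain, with filled points for an adjusted p below 0.05 and Hamp left out of lung and brain. Slc40a1 and Hmox1 of S226A lie left of 0 in liver and right of 0 in lung, and no Y130A point is filled.

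Whether the 2 mutants differ was tested through the interaction, each mutant being set against its own littermates, since the sets of litters differed in depth by a ratio of medians of 2.19. In liver none of the 10 genes was called by edgeR, against 5.9% of all genes, with 5 of 10 at an unadjusted p under 0.05 against 18.4% of all genes, and Slc40a1 came closest (log2 difference -0.48, standard error 0.16, adjusted p = 0.0594). Slc40a1 passed with litter as a block (adjusted p = 0.0071, against 7.11% of all genes), with DESeq2 (0.0209), with RLE size factors (0.0372), with only the livers fitted (0.0042) and without S226A replicate 2 (0.0273). For Hmox1 in liver the difference was -0.34 (adjusted p = 0.200), so that its fall is not shown to be particular to S226A. In lung, Hmox1 was called (log2 difference 0.91, standard error 0.16, adjusted p = 0.0027), against 0.308% of all genes, but did not meet the stringent criterion (0.077% of all genes). Slc40a1 in lung differed by 0.64 (adjusted p = 0.106) and by 0.71 with the block (adjusted p = 0.0059, against 0.734% of all genes). It passed with DESeq2 (0.60, adjusted p = 0.0382), without WT replicate 2 (0.69, adjusted p = 0.0438) or S226A replicate 4 (0.75, adjusted p = 0.0320) of the S226A litters and without Y130A replicate 1 (0.77, adjusted p = 0.0152). Tfr2 in lung, at 2.07 (adjusted p = 0.106), passed with DESeq2 (adjusted p = 0.0222) and without Y130A replicate 1 (2.30, adjusted p = 0.0377). In brain none of the 10 genes was called by edgeR or DESeq2, against 0.0829% of all genes by edgeR. At an unadjusted p under 0.05 there were 2 of the 10, against 2.29% of all genes.

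Pearson correlations of log2(CPM + 1) across the 16 livers, given as a description, show the genes that ran most alike and most opposite. Among those most alike were markers from the lists above for Slc40a1 (Timd4 and Csf1r) and Hmox1 (Cd5l) and none for Hamp. Slc40a1 ran with Dmpk (r = 0.958), the phagocytic receptor Timd4 (0.958) and Csf1r (0.956), and most opposite to Mpo, Prtn3 and Mcemp1 (-0.970 to -0.963), of which the first 2 are granule proteins of neutrophils. Hmox1 ran with Vcam1 (0.928), an adhesion molecule of stromal cells and macrophages, with Cd5l (0.913) and with Zeb2 (0.912), and opposite to Anxa11, Rassf5 and Alox5 (-0.937 to -0.931). Hamp ran with Lrrc61 (0.935), Ltb4r1 (0.914) and Slc44a2 (0.901) and opposite to Dnah2, Spopl and Tspo2 (-0.920 to -0.912), of which Tspo2 is on the erythroid list. The 16 livers span both sets of litters, whose WT livers did not overlap in Hamp, and the part of this in its correlations was not tested. The 4 S226A livers form a cluster of their own for Slc40a1, Hmox1 and Kupffer cell markers, and each of these livers has its WT littermate among the other 12.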

How the data were processed

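RNA from liver, lung and brain was extracted with Trizol. The deposited values are raw counts of reads per gene, which the authors obtained after trimming with Trim Galore 0.6.5 and alignment to GRCm38 with STAR 2.6.0b on GENCODE M19, per the labels and the methods of the study. The strand setting is not given in the sources used here, so that overlapping genes could share reads.

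Counts were fitted with edgeR 4.0.16 (R 4.3.3), with TMM, filterByExpr (minimum count 10, minimum total 15), 1 coefficient for each of 12 groups, and glmQLFTest with Benjamini-Hochberg adjustment over 16892 genes. The standard error of each fitted change was derived from its quasi-likelihood F statistic. The 10 genes and the other gene lists were chosen with earlier results of these data known. Named genes were the 10, up to 4 called genes of each other iron list, up to 5 of each blood cell list, and 6 correlates for each of Hamp, Slc40a1 and Hmox1, and Vsig4, Marco, Nr1h3, Stab1, Pecam1 S100a8, S100a9 and the macrophage markers of lung and brain were added after their values were seen. Single genes were compared by two-sided exact permutation tests. Embryos were separate animals, and same-litter pairs deviated together (r above 0.1 in 23 of 23 pairs, median 0.289, against -0.104 for 69 other pairs), so that litter was fitted as a block in an alternative. No 2 libraries of a group were copies (lowest chi-square per degree of freedom 4.09). Positions are from GENCODE M21, matched by gene ID for 20445 genes. On simulated counts of S226A liver with 100 genes changed by each of 2 sizes, edgeR called 71% at 1.5-fold and 88% at 2-fold, and 12 unchanged genes of 16789. The changed genes were picked among those with higher counts in S226A liver. Libraries were drawn independently, without the likeness of littermates. Alternatives were DESeq2 1.42.0, RLE size factors, no filter on low counts, only the libraries compared, the litter block, the stringent criterion and leaving out each library. The fit without 2 livers and the length of the coding transcript were chosen after seeing the data. Figures were drawn with matplotlib 3.10.9 in Python 3.11.15. The reads and transposable elements were not analysed here.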

Additional observations from a re-analysis of the deposited data

Results flagged for a closer look

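In 7 cases a value stood apart within a group of 4 libraries, by a gap to the nearest library that took up a larger part of the group's range than Dixon's 95% limit for 4 values. Gaps were taken on the log2(CPM + 1) scale, and groups whose highest library held at most 3 reads were left out, such as Hamp in the WT lungs of the S226A litters (2, 0, 0 and 0 reads). Chance flags about 1 in 20 groups, and 105 values were examined. Slc40a1 was high in S226A liver replicate 2 (gap 0.964 of the range, 309 CPM against 252 to 253) and low in S226A brain replicate 2 (0.952, 17.2 CPM against 20.7 to 20.9). Trf was low in replicate 2 of the WT livers of the S226A litters (0.845, 1355 CPM against 1631 to 1687), which is the liver with squamous transcripts. Ftl1 was high in S226A lung replicate 4 (0.922, 368 CPM against 345 to 347), and Bmp6 was low in Y130A lung replicate 1 (0.901, 13.8 CPM against 17.4 to 17.9). Hamp was found in a single library of the WT brains of the S226A litters, replicate 1 (gap of 1, 0.252 CPM from 6 reads), and in a single Y130A lung, replicate 2 (gap of 1, 0.0918 CPM from 4 reads).

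Effects that differed between conditions by a test of the difference were those of S226A in liver against lung for Slc40a1 (log2 difference -1.12), Hmox1 (-1.43) and Tfr2 (-2.11), of S226A in liver against brain for Slc40a1 (-0.81) and Hmox1 (-1.197), and of S226A against Y130A in lung for Hmox1 (0.91). The difference for Tfr2 rests on very few reads in lung, and Tfr2 was not called in S226A liver.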

How the results depend on the processing

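Across the alternatives, no called value of the 10 genes changed sign, and of the values for single genes 1920 stayed on the same side of the threshold, 24 lost a call and 19 gained one. Most of the 1920 had no call in the main fit and so none to lose. The 24 losses fall on the few of the 110 main values that were called. Under the stringent criterion the count of called genes went from 10 to 9 for WT liver against lung, without Hamp, and was 0 in S226A liver, 0 in S226A lung, 0 in S226A brain, 0 for S226A against Y130A in lung, 1 for the S226A effect in liver against brain, and 4 for WT lung against brain. With only the libraries compared in the fit it was 1 in S226A lung, where Tfr2 fell below the filter on low counts and was not tested, 0 in S226A brain and 1 for the mutants in liver. DESeq2 gave 1 for the mutants in liver and 3 in lung, and RLE size factors 1 in liver. With litter as a replicate block, which the pairing of littermates warrants, it was 5 in S226A liver, 0 in S226A brain, 1 for the mutants in liver and 2 in lung, and beside those named in the report the block changed no other call. Leaving out 1 library at a time gave 2 to 4 in S226A liver, 2 to 3 in S226A lung, 0 to 1 in S226A brain, 0 to 1 and 1 to 3 for the mutants in liver and lung, 3 to 4 for liver against lung and 2 to 3 for liver against brain. In S226A brain the count was 0 without WT replicates 1, 3 or 4 or S226A replicates 1, 2 or 3. For the mutants in lung, Slc40a1 was added without WT replicate 2 or S226A replicate 4 of the S226A litters, and with Tfr2 without Y130A replicate 1. Where a call changed, the cause was not tested.

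Depth and n set limits. In simulation of S226A liver, edgeR called 71% of genes changed by 1.5-fold, picked among those with higher counts. This rate does not cover genes with few reads, nor lung or brain. Tfr2 in lung and Hamp outside liver rest on few reads, and counts of RNA say nothing of ferritin or ferroportin protein or of iron content.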
